A study of Mus musculus with 6 samples.

Results

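Lhx2, Sox9, Nfatc1, Foxc1, Tbx1, Foxp1 and Runx1 are 7 transcription factors that mark or control the stem cells of the hair follicle bulge. They were read through every probe set annotated to exactly 1 of these symbols, which gave 26 of the 45037 probe sets on the array that are not controls, and 7 of the 18193 genes with a probe set of their own. The arrays measured RNA of epithelial cells from the bulge of mouse vibrissae, the large whisker follicles, grown as spheroids in atelocollagen for 6 days. All cultures received Noggin, FGF-7, FGF-10 and the Smoothened agonist SAG (NFFS medium), and NFFSE medium held EGF as well. The cells of each of 3 experiments were divided between the media, giving 3 NFFSE arrays and 3 NFFS arrays with the same replicate numbers. The vibrissae came from mice aged 7 to 8 weeks per the methods, which list C57BL/6N and several transgenic or mutant lines and do not state which of them gave the array cultures. All bulge cells were seeded, so that niche cells could be included, and the labels call the arrays biological replicates without naming the animals, so that the p-values measure the spread between these cultures.

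Hair follicle stem cells (HFSCs) of the bulge divide rarely and are set aside from the progenitors that build the hair shaft. Lhx2 and Sox9 keep them in an undifferentiated state, Nfatc1, Foxc1 and Foxp1 hold them in quiescence, Tbx1 supports their self-renewal, and Runx1 promotes their entry into a new growth phase. Noggin blocks BMP signals, which favour quiescence, and EGF drives proliferation of keratinocytes.

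The array signals, in linear units scaled by the authors to the same trimmed mean on each array, had medians of 56.3 to 64.8 in NFFSE and 66.2 to 70.5 in NFFS. Relative to the median of each array, the median log2 difference (NFFSE minus NFFS) of all genes moved from -0.01 to 0.19, and all 7 calls below held their direction and passed the test on that scale too. The log2 ratio of the 3′ to the 5′ probe sets of Gapdh was -0.38 to -0.36 in NFFSE and -0.63 to -0.60 in NFFS, while that of the actin control was 0.26 to 0.29 in NFFSE and 0.26 to 0.37 in NFFS, and the part of either in the results was not tested. Probe sets of the bacterial control TrpnX reached 22.7, and signals at or below that value were taken as background. The basal epithelial keratins Krt5 and Krt14 were bright on all 6 arrays, with mean signals of 28201 for Krt5 and 16129 for Krt14 in NFFS.

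By the brightest probe set of each gene, 6 of the 7 factors were lower in NFFSE-cultured cells and Foxc1 alone was higher. All 7 passed the test (limma, adjusted p under 0.05 over all genes), beside 26.2% of all genes, and the arrays of the media did not overlap for any of them, beside 40.5% of all genes. For Runx1 the probe sets disagreed, and the mean of its 6 did not pass (log2 difference -0.32, adjusted p = 0.208, limma). A fall was called for 15.2% and a rise for 11.0% of all genes, which is 2771 lower and 2002 higher. With arrays centred on their medians this balance turned, with 1784 lower and 2916 higher, while the 7 genes stayed at 6 lower and 1 higher. The median log2 difference of the 7 genes was -1.18. These genes were chosen with earlier results of these data known, so the shares of all genes are set beside them as a description. Over probe sets the count was 20 lower, 3 higher and 3 that did not pass, where 20.4% of all probe sets were called, 12.7% lower and 7.69% higher. The arrays of the media did not overlap for 25 of the 26, beside 36.2% of all probe sets. In RNA of whole cultures, fewer cells of a type and less RNA per cell cannot be told apart.

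**Figure D1:**
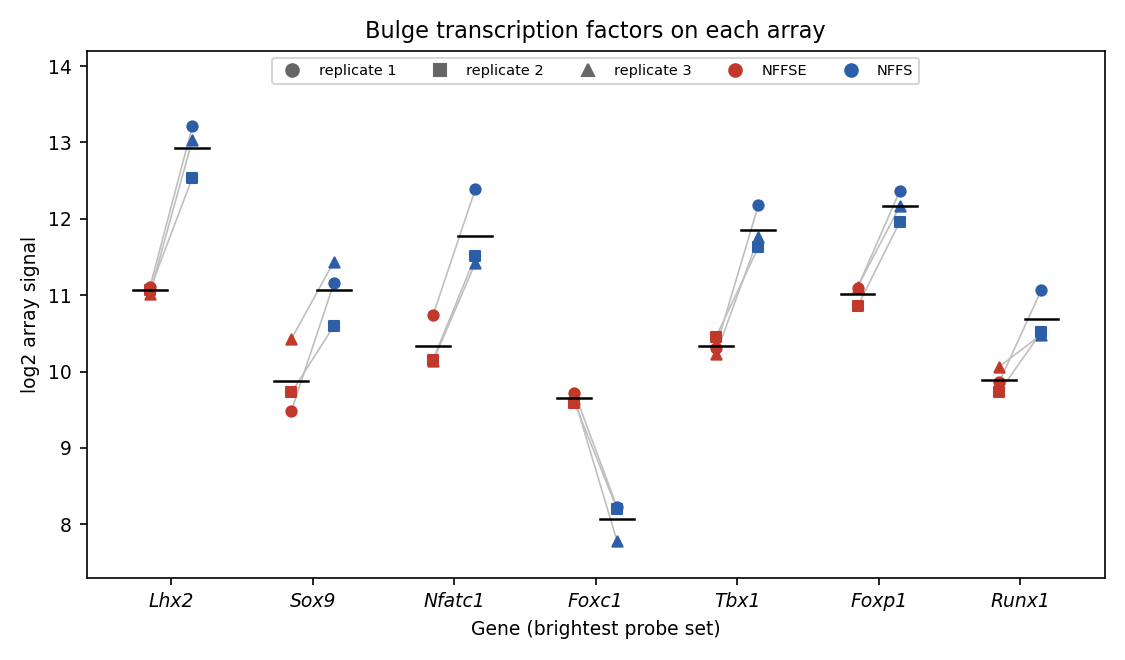
Log2 array signal (vertical axis) of the brightest probe set of each gene (horizontal axis) on the 3 NFFSE arrays (red) and the 3 NFFS arrays (blue). Marker shapes give the replicate number, grey lines join arrays of the same experiment and black bars are means of 3 arrays. The NFFSE arrays lie below the NFFS arrays for 6 genes and above them for Foxc1.

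In order of size, the 6 falls were those of Lhx2, Tbx1, Nfatc1, Sox9, Foxp1 and Runx1, with log2 differences of the brightest probe sets from -1.86 to -0.81. The 95% confidence intervals of neighbours in this order overlapped, and the differences between the genes' falls were not tested. Signals of different probe sets are not on one scale, so that the levels of the genes were not ranked.

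Lhx2, a LIM homeodomain factor that maintains bulge stem cells, was the member with the largest fall in its brightest probe set. Its single probe set had signals of 2204, 2153 and 2074 on NFFSE arrays 1 to 3 and of 9477, 5951 and 8393 on NFFS arrays 1 to 3. The NFFSE arrays lay close together, while the NFFS arrays were spread and their lowest was still above every NFFSE array. The signal was 3.64-fold lower in NFFSE, a log2 difference of -1.86 (SE 0.16, 95% interval -2.21 to -1.51, adjusted p = 2.97e-05, limma). Within the 3 experiments the log2 difference was -2.10, -1.47 and -2.02.

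For Lhx2, 2 RefSeq start sites were read, and the 250 bases before each are shown because they differ in the motif words they hold (GRCm38.p6, plus strand, chr2:38339031-38339280 for start site 1 and chr2:38351058-38351307 for start site 2). The RefSeq gene begins at position 38339271, so the first window reaches past its first base. Capitals mark a match to 1 of 8 words searched on both strands, which are spelled out with their shares among 32851 RefSeq promoters of this length after the account of Runx1.
Lhx2 start site 1: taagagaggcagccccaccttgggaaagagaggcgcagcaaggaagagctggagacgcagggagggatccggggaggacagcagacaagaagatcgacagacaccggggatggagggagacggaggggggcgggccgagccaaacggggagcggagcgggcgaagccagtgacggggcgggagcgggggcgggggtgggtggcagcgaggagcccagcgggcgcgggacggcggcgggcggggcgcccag
Lhx2 start site 2: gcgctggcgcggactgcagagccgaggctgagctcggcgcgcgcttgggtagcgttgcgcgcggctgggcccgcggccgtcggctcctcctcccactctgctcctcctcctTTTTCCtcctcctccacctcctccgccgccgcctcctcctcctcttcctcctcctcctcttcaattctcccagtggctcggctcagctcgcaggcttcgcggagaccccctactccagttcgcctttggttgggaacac
Start site 1 held none of the words, and start site 2 held 1 match to the NFAT word, read as TTTTCC, 139 bases before the start.

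Tbx1, a T-box factor of stem cell self-renewal, was the member next to Lhx2 in the size of its fall. Its only probe set read 1274, 1402 and 1196 in NFFSE and 4647, 3169 and 3462 in NFFS. The media were well apart on this gene in all 3 experiments. It was 2.88-fold lower in NFFSE (log2 difference -1.53 with SE 0.15, adjusted p = 6.21e-05, limma).

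Sox9, an HMG-box factor needed to specify and keep bulge stem cells, was read by 3 probe sets. The brightest, 1424950_at, gave 718, 848 and 1377 in NFFSE and 2287, 1549 and 2776 in NFFS. Replicate 3 had the highest signal in each medium, and the highest NFFSE array came near the lowest NFFS array without reaching it. It was 2.27-fold lower in NFFSE (log2 difference -1.18 with SE 0.26, adjusted p = 0.00799, limma). A second probe set, 1451538_at, had 662, 846 and 1234 in NFFSE and 2141, 1732 and 2427 in NFFS, a log2 difference of -1.23 (adjusted p = 0.0022, limma). The third, 1433889_at, was dim, with 10.9, 9.04 and 9.98 in NFFSE and 24.3, 11.0 and 25.8 in NFFS. Only 2 arrays of this probe set, both in NFFS, were above background, and it did not pass the test (log2 difference -0.94, 95% interval -2.37 to 0.50). In the fit of genes, the call of Sox9 ended with a floor of 32 under all signals (adjusted p = 0.0784) and without the intensity trend in the spread (adjusted p = 0.0697, limma). The floor changed no signal of the brightest probe set, and its log2 difference stayed at -1.18.

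Nfatc1, a calcineurin-dependent factor that keeps bulge stem cells quiescent, fell on all 5 of its probe sets. The brightest, 1417621_at, read 1704, 1138 and 1124 in NFFSE and 5377, 2918 and 2743 in NFFS. Replicate 1 was the highest in both media, and the log2 differences within experiments were -1.66, -1.36 and -1.29. Over the 3 experiments this probe set was 2.70-fold lower in NFFSE (log2 difference -1.43 with SE 0.25, adjusted p = 0.00242, limma). The largest difference was that of 1428479_at, which had 786, 441 and 473 in NFFSE and 3702, 2027 and 1606 in NFFS, 4.19-fold lower (adjusted p = 7.61e-04, limma). Log2 differences of 1425761_a_at, 1447085_s_at and 1447084_at were -1.25, -1.55 and -1.87. The call of 1425761_a_at was lost with the floor (adjusted p = 0.0743) and without the intensity trend (adjusted p = 0.0734, limma), although all its signals were above the floor. No Nfatc1 probe set departed from the others of the gene (diffSplice, a limma test of whether 1 probe set's difference between media departs from those of the gene's other probe sets), a test called for 4.74% of the 25762 probe sets of 9010 genes with several.

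Foxp1, a forkhead factor of stem cell quiescence, fell on all 8 of its probe sets, with log2 differences from -1.87 to -0.76 and a median of -1.21. The brightest, 1435222_at, read 2193, 1849 and 2209 in NFFSE and 5292, 3995 and 4598 in NFFS. The media were far apart relative to the spread within each, and the fall was 2.21-fold (log2 difference -1.15 with SE 0.13, adjusted p = 1.67e-04, limma). The smallest fall was that of 1421141_a_at, with 1299, 1094 and 1154 in NFFSE and 2480, 1568 and 2039 in NFFS, 1.69-fold lower (adjusted p = 0.0074, limma). Other log2 differences were those of 1421140_a_at (-0.89), 1421142_s_at (-0.95), 1455242_at (-1.28) and 1435221_at (-1.40), with NFFSE lower in all 3 experiments on each. Of the dimmer probe sets, 1438802_at fell from 121, 141 and 120.2 in NFFS to 38.1, 26.2 and 42.5 in NFFSE. Its difference was the largest of the gene at -1.87, and its departure from the other Foxp1 probe sets was -0.72 (adjusted p = 0.112, diffSplice), a departure that was called with the floor (adjusted p = 0.00902) and without NFFSE replicate 3 (adjusted p = 0.0472, limma). The call of the dimmest, 1443258_at, with 1 NFFSE array at background, was near the threshold (adjusted p = 0.0431, limma) and was lost without NFFSE replicate 2, NFFSE replicate 3 or any 1 NFFS array (adjusted p 0.0804 to 0.13).

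Foxc1, a forkhead factor that is induced in activated bulge stem cells and returns them to quiescence, was the only one of the 7 to rise. Its brighter probe set, 1419486_at, read 846, 772 and 802 in NFFSE and 299.8, 296 and 221 in NFFS. Every NFFSE array was above every NFFS array, and the signal was 2.99-fold higher in NFFSE (log2 difference 1.58 with SE 0.15, adjusted p = 6.18e-05, limma). The other probe set, 1419485_at, showed 371, 385 and 385 in NFFSE and 149, 94.6 and 118 in NFFS. Its log2 difference was 1.68 (adjusted p = 2.19e-04, limma), and the departure between the pair was not called (adjusted p = 0.913, diffSplice).

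The promoter of Foxc1 is shown because this gene moved opposite to the other 6 (GRCm38.p6, plus strand, chr13:31806396-31806645, 250 bases before the RefSeq start, capitals as above).
Foxc1: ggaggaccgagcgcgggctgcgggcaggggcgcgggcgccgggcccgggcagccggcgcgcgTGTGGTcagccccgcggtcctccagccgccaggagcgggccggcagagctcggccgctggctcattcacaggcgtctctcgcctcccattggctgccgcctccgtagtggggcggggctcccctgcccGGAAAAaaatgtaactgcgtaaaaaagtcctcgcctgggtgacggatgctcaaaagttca
It held the NFAT word GGAAAA 60 bases before the start and the RUNX word, read as TGTGGT, 188 bases before the start, and had 29 CpG and 70.8% GC, against medians of 6 and 52.4% over all promoters.

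**Figure D2:**
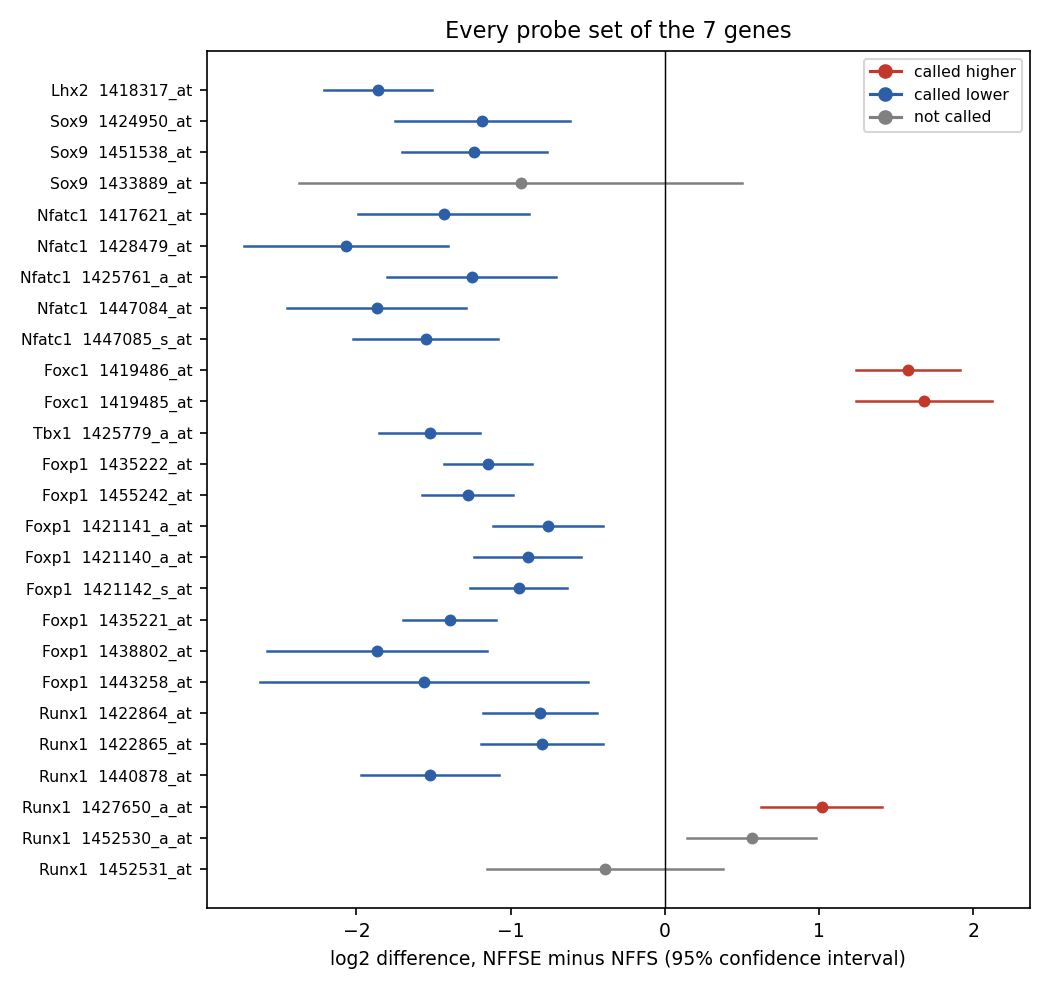
Log2 difference in array signal, NFFSE minus NFFS (horizontal axis), of each of the 26 probe sets (vertical axis, by gene), with 95% confidence intervals from the limma fit of 3 arrays per medium. Blue and red mark probe sets called lower and higher, and grey marks those that did not pass. All Nfatc1 and Foxp1 probe sets are on the lower side, both of Foxc1 on the higher side, and those of Runx1 lie on both sides of 0.

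Runx1, a Runt-domain factor that promotes the growth phase of the follicle, was the member whose probe sets went in opposite directions. Its 6 probe sets were designed on 4 database sequences. The brightest, 1422864_at, had 928, 850 and 1070 in NFFSE and 2152, 1469 and 1433 in NFFS, and was 1.75-fold lower in NFFSE (log2 difference -0.81 with SE 0.17, adjusted p = 0.00626, limma). The media did not overlap, and 1422865_at, from the same database sequence, gave nearly the same difference, -0.80 (adjusted p = 0.00967, limma). A larger fall was read by 1440878_at, with 279, 194 and 229 in NFFSE and 875, 588 and 569 in NFFS (2.87-fold lower, adjusted p = 4.61e-04, limma).

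The opposite was read by 1427650_a_at, which had 391, 442 and 389 in NFFSE and 247, 172 and 191 in NFFS. All 3 NFFSE arrays were above all 3 NFFS arrays, and the signal was 2.02-fold higher in NFFSE (log2 difference 1.02 with SE 0.18, adjusted p = 0.00229, limma). Likewise, 1452530_a_at had 241, 201 and 261 in NFFSE and 169, 164 and 141 in NFFS, without overlap, but its log2 difference of 0.56 did not pass the test (adjusted p = 0.0605, limma), whereas it passed with arrays centred on their medians (adjusted p = 0.0219) or normalized by quantiles (adjusted p = 0.0164, limma). The remaining probe set, 1452531_at, overlapped between the media (63.8, 91.4 and 157 in NFFSE, 133, 99.9 and 155 in NFFS) and had a log2 difference of -0.39 (95% interval -1.15 to 0.38).

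The disagreement was tested directly. Relative to the other Runx1 probe sets, 1427650_a_at departed upwards by 1.61 (adjusted p = 0.00109) and 1440878_at downwards, with a departure of -1.44 (adjusted p = 0.00279, diffSplice), and both departures were called without any 1 array. That of 1452530_a_at was 1.06 (adjusted p = 0.026, diffSplice) and was lost without NFFSE replicate 1, NFFSE replicate 2, NFFS replicate 1 or NFFS replicate 3 (adjusted p 0.0783 to 0.132). The mean of the 6 probe sets gave a log2 difference of -0.32 for Runx1 (adjusted p = 0.208, limma), so that its call as a falling gene rests on taking the brightest probe set. In this array's naming, _a_at marks probes that match several transcripts of 1 gene, and the place of each probe in the Runx1 transcripts was not analysed here.

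**Figure D3:**
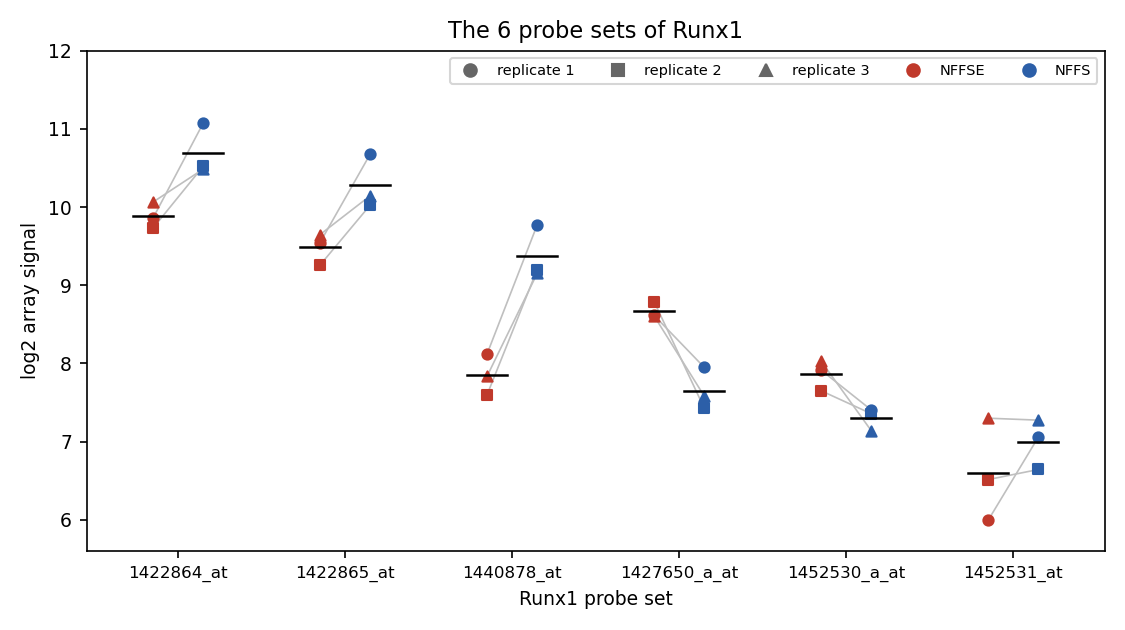
Log2 array signal (vertical axis) of the 6 Runx1 probe sets (horizontal axis) on each array, with NFFSE in red, NFFS in blue, marker shapes for the replicate number, grey lines within experiments and black bars for means of 3 arrays. NFFSE lies below NFFS for 1422864_at, 1422865_at and 1440878_at and above it for 1427650_a_at and 1452530_a_at, and 1452531_at overlaps.

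Runx1 is transcribed from a distal and a proximal promoter, and the 250 bases before both RefSeq start sites are shown to set them side by side (GRCm38.p6, minus strand, chr16:92826075-92826324 for start site 1 and chr16:92697330-92697579 for start site 2, capitals as above). The arrays do not tell which start site a probe set reads.
Runx1 start site 1: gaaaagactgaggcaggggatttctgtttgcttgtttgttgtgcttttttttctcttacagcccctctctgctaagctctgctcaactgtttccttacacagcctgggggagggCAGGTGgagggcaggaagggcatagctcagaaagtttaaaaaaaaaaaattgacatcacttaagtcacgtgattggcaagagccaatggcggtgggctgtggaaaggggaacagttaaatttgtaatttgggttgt
Runx1 start site 2: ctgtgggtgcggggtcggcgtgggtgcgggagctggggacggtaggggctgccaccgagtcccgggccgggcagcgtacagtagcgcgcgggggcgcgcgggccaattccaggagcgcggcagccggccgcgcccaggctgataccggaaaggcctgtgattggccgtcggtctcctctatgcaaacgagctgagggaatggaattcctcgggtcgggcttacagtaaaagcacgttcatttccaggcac
Start site 1 had 45.6% GC, 2 CpG and an E-box, read as CAGGTG, 136 bases before the start. Start site 2 had 67.6% GC, 27 CpG and none of the words.

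The promoter windows read were those of 10 start sites of Lhx2, Foxc1, Tbx1, Foxp1 and Runx1. No window of Sox9 or Nfatc1 was analysed here. The words searched, where N is any base, were TGANTCA for AP-1 (held by 6.75% of all promoters), CTTTGA for TCF/LEF (13.8%), TAATTA for LIM homeodomain factors (4.84%), ACAATG for SOX (10.7%), GGAAAA for NFAT (20.4%), TGTTTAC for forkhead factors (3.17%), TGNGGT for RUNX (40.1%) and CACCTG for E-boxes (17.2%). None of the words contains another. The AP-1 and forkhead words were in none of the 10 windows. The RUNX word was in the windows of Foxc1, Tbx1 start site 2 and Foxp1 start site 1, with 2 matches each in Tbx1 and Foxp1. A match is a run of letters and was not tested as a binding site.

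To place the 7 genes among their neighbours in biology, 4 lists were read in the same fit of genes. The lists, like the 7 genes, were chosen with earlier results of these data known. Counts in them are descriptions beside the shares of all genes. Of 16 other regulators of hair follicle stem cells, 13 were lower in NFFSE (beside 15.2% of all genes), 1 was higher (beside 11.0%) and 2 did not pass. Their median log2 difference was -1.16 beside -0.01 for all genes. The members with the smallest p were the vitamin D receptor Vdr (log2 difference -2.55), the hedgehog effector Gli1 (-3.04), the Wnt effector Tcf7l1 (-1.58) and the homeobox factor Barx2 (-1.78). Hopx, a homeodomain protein of slow-cycling cells, was the 1 that rose (log2 difference 0.65, adjusted p = 0.0121, limma), and its call was lost without NFFSE replicate 2 (adjusted p = 0.052), NFFSE replicate 3 (adjusted p = 0.0522) or with the mean of its probe sets (adjusted p = 0.0585, limma), and also with the floor (adjusted p = 0.0694) and without the intensity trend (adjusted p = 0.0836, limma). The pair that did not pass was Trp63, the p63 factor of basal epithelium (-0.24), and Stat3 (0.03). Trp63 passed with the mean of its probe sets (-0.91), with quantile normalization (-0.52) and with the floor (adjusted p = 0.0481, limma). It also passed with the methods' t-test (adjusted p = 0.0357). Hopx, Trp63 and Stat3 were named after their values were seen.

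Of 15 relatives of the 7 genes by family, 13 were measured, 3 were lower (beside 15.2% of all genes), none was higher and 10 did not pass, with a median log2 difference of -0.06. The 3 were Foxp2, a paralog of Foxp1 (log2 difference -1.14), Sox8, a paralog of Sox9 (-2.31), and Nfatc3 (-0.56). The call of Sox8 was lost with the floor (adjusted p = 0.0745) and without the intensity trend (adjusted p = 0.0635, limma), and that of Nfatc3 ended with arrays centred on their medians (adjusted p = 0.201, limma) and without NFFSE replicate 2, NFFSE replicate 3, NFFS replicate 1 or NFFS replicate 3 (adjusted p 0.0799 to 0.0956). Runx3, a paralog of Runx1, had all 3 NFFS arrays and 2 of 3 NFFSE arrays at background and did not pass (adjusted p = 0.052, limma), though it did with the replicate block (adjusted p = 0.0382), with arrays centred on their medians (adjusted p = 0.0333) and without NFFS replicate 2 (adjusted p = 0.0154, limma). The count of relatives called higher was 1 without NFFS replicate 1 or NFFS replicate 2. Tbx15 was at background on all 6 arrays, Tbx18 on 5 and Foxc2 on 4, so that a fall of these relatives could not be read. The mean log2 signals of Lhx9, Sox10, Nfatc2, Nfatc4, Foxp3 and Foxp4 were at percentiles 30.1 to 50.4 of all genes. Those of the 7 factors were at 64.6 to 93.9, so the medians of the 2 lists compare genes of unlike signal. Runx2 and Tbx10 have no probe set of 1 name and were not analysed here.

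Of 11 genes for partners and modifiers of these factors, 5 were lower (beside 15.2% of all genes), 1 was higher (beside 11.0%) and 5 did not pass. Their median log2 difference was -0.23. The LIM-domain protein Lmo4, which competes with Lhx factors for the cofactor Ldb1, had a signal of 697 ± 85.3 on the NFFSE arrays and 4061 ± 366 on the NFFS arrays (mean ± SD of 3), a log2 difference of -2.55 (adjusted p = 7.78e-07, limma). Ssbp3, which binds Ldb1, was at -1.72 and Ldb1 itself at -0.54, a call near the threshold (adjusted p = 0.043, limma) that was lost with arrays centred on their medians (adjusted p = 0.263) and without any 1 array other than NFFS replicate 2 (adjusted p 0.0544 to 0.147). Of the NFAT pathway, the calcineurin subunit Ppp3cb fell (log2 difference -0.67) and the NFAT kinase Dyrk1a fell (-0.79), and neither was called when all probe sets of a gene were averaged (-0.07 and -0.29). The other calcineurin subunits Ppp3ca and Ppp3r1 had log2 differences of 0.02 and 0.04 (adjusted p = 0.93 and 0.83, limma), and Ppp3r1 was called lower when all its probe sets were averaged (-0.60). Rcan1, a calcineurin inhibitor that NFAT induces, was higher (log2 difference 0.62, adjusted p = 0.0127, limma), a call lost without NFFSE replicate 2 (adjusted p = 0.0554) or NFFSE replicate 3 (adjusted p = 0.0547), with the floor (adjusted p = 0.0758) and without the intensity trend (adjusted p = 0.0919, limma). Cbfb, the obligate partner of the RUNX proteins, had a log2 difference of -0.23 (adjusted p = 0.128, limma), which passed with quantile normalization (adjusted p = 0.00479, limma). Ldb1, Rcan1, Cbfb, Ppp3ca and Ppp3r1 were named after their values were seen.

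Genes that published work ties to 1 of the 7 factors went both ways. Of 9, Prlr was not analysed here, 3 were higher (beside 11.0% of all genes), 3 were lower (beside 15.2%) and 2 did not pass. Their median log2 difference was 0.44. Cdkn1a, the p21 cell cycle inhibitor linked to Runx1, rose 4.78-fold, to 6945 ± 318 on the NFFSE arrays against 1475 ± 302 on the NFFS arrays (mean ± SD of 3). Bmp6, a quiescence ligand linked to Foxc1, rose with it by 2.61-fold (adjusted p = 0.00546, limma), and Itgb6, an integrin linked to Lhx2, rose 1.93-fold. The call of Itgb6 was lost with the methods' t-test (adjusted p = 0.0779). Lgr5, a stem cell receptor linked to Lhx2, was 62.0-fold lower in NFFSE, Inhbb, an activin subunit linked to Sox9, was 2.53-fold lower, and the cell cycle kinase Cdk4, which Nfatc1 represses, was 1.68-fold lower. Fgf18, linked to Foxp1, had 3 NFFS arrays and 1 NFFSE array at background, and Socs3, linked to Runx1, had a log2 difference of -0.07. Bmp6, Itgb6, Fgf18 and Socs3 were named after their values were seen.

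**Figure D4:**
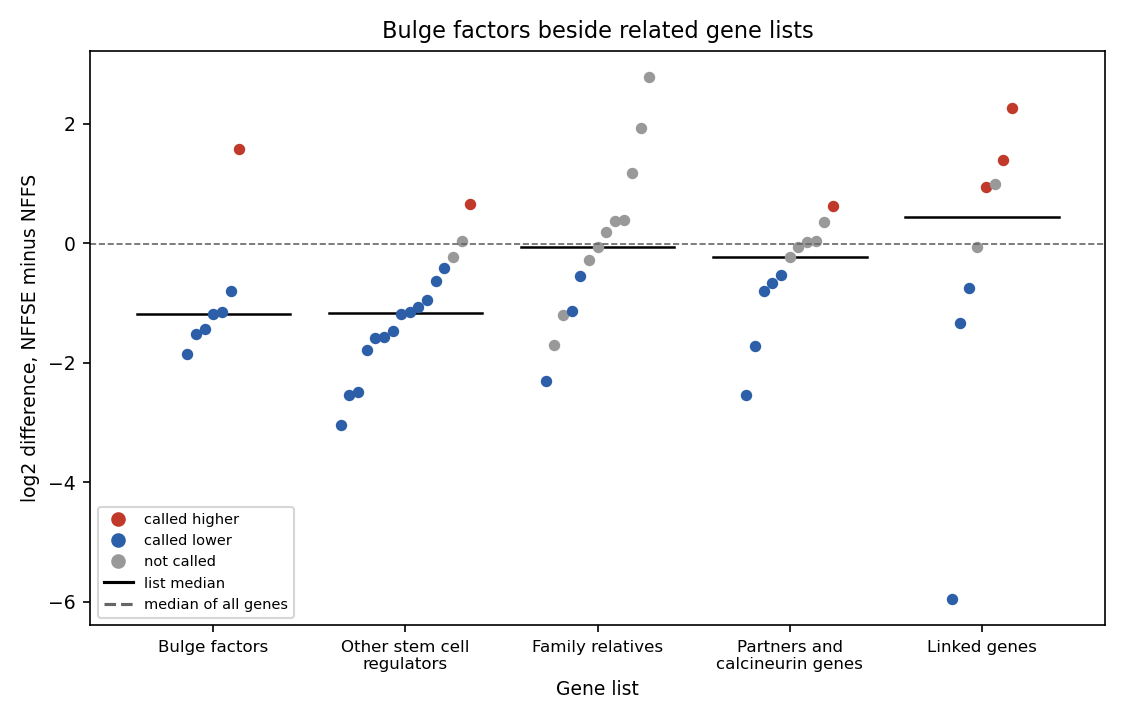
Log2 difference, NFFSE minus NFFS (vertical axis), of each measured gene (points, sorted within each list) of the 7 bulge factors and of 4 related lists (horizontal axis), with list medians as black lines and the median of all genes as a dashed line. Red and blue mark genes called higher and lower and grey those that did not pass. The bulge factors and the other stem cell regulators have medians of -1.18 and -1.16, and the family relatives have a median of -0.06 and run from -2.31 to 2.78. The value of 2.78 is that of Runx3, with all 3 NFFS arrays and 2 of 3 NFFSE arrays at background.

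Over the 6 arrays, the pattern of each factor was compared with that of the 7277 brighter genes as the root mean square distance between log2 signals centred on each gene's mean. The nearest genes were Smpdl3b and Adgra3 for Lhx2 (distances 0.0933 and 0.0947), Lama5 and Fzd1 for Sox9 (0.154 each), Plekhg1 and Rere for Nfatc1 (0.145 and 0.171), and Lad1 and Ndrg1 for Foxc1 (0.0473 and 0.0726). For Tbx1 they were Add3 and Tcf7l1 (0.083 and 0.101), for Foxp1 Rbbp9 and Elk4 (0.042 and 0.0471), and for Runx1 Grasp and Dennd11 (0.0607 and 0.078). Among the 7 genes themselves, the nearest pairs were Lhx2 with Tbx1 (0.209) and Foxp1 with Runx1 (0.211), and Foxc1 was 1.21 to 1.74 from the others. With 3 arrays per medium, these distances follow the size of the difference between media and are a description.

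Markers of the labelled cell type and of other cells were read beside these results. Of 8 bulge and basal epithelial markers, 4 were higher in NFFSE (Cd34, Itga6, Krt14 and Col17a1), 3 were lower (Krt15, Cd200 and Npnt) and Krt5 did not pass, with summed signals of 90346 to 108710 in NFFSE and 79561 to 91048 in NFFS. Of 8 fibroblast and dermal papilla markers, Thy1, Col1a2 and Vim were lower in NFFSE and none was higher, with sums of 487 to 502 in NFFSE and 691 to 906 in NFFS. In the same fit, 15.2% of all genes were called lower and 11.0% higher. None of 5 endothelial, 6 leukocyte or 4 melanocyte markers passed the test. Their sums in NFFSE and NFFS were 225 to 291 and 188 to 276 for endothelium, 395 to 541 and 418 to 499 for leukocytes, and 338 to 529 and 380.2 to 546 for melanocytes. The leukocyte marker Cd3e was at background on all 6 arrays, and the collagen markers Col1a1 and Col3a1 had mean signals of 33.7 and 30.4 in NFFS. Of the fibroblast markers that did not pass, Pdgfra, Lum, Col1a1 and Col3a1 had log2 differences above 0 and Dcn one below 0. Each sum follows the brightest markers of its list and does not measure how many cells of a type were present. The part of these markers in the results was not tested.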

How the data were processed

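Bulge cells of 3 experiments were cultured in NFFSE or NFFS, and RNA of each culture (100 ng) was labelled and run on an Affymetrix whole-genome array for mouse. The deposited values are linear intensities for each probe set, which the authors made with GeneChip Command Console and MAS5, whose version the sources used here do not give. The trimmed mean (2% at each end) was 500.003 on each of the 6 arrays. Intensities deposited in this form carry no read depth, and the number of arrays limits the precision.

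Groups were taken from the labels. Control probe sets (64 of 45101) were left out. Of the others, 34945 had 1 gene symbol, 932 several and 9160 none in the platform annotation. Signals were taken to log2 and fitted with limma 3.58.1 in R 4.3.3 (lmFit, eBayes with an intensity trend, Benjamini-Hochberg adjustment, called at 0.05), once over all probe sets and once over genes, each by its brightest probe set. Adjusted p-values of member probe sets come from the fit of probe sets and those of other genes from the fit of genes. Differences among probe sets of a gene used diffSplice. The main fits of genes and probe sets and diffSplice were tested on simulated data, where false calls were rare and recovery was low in dim probe sets. The simulated noise was independent between arrays, so it does not cover effects shared by arrays, and the alternatives were not simulated. The recovery required to pass was lowered after its outcome was seen. The highest correlation between arrays was 0.944, so that no array was a copy.

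The members and gene lists were chosen with earlier results of these data known. All member probe sets are named, with the 4 genes of smallest p in each list and the 2 nearest genes by pattern among genes at or above the 60th percentile of mean signal, and exceptions are marked. Replicate numbers pair the arrays: the submitters' design divides the cells of each experiment between media, and deviations of same-numbered arrays correlated at 0.295, 0.156 and 0.137 across probe sets, against at most 0.0371 for other pairs. Alternatives were median centring, quantile normalization, a floor of 32, an offset of 16, a filter at the 40th percentile, no intensity trend, the replicate block, the methods' t-test, each array left out, the mean of all probe sets, and no _x_at or _s_at probe sets.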

Additional observations from a re-analysis of the deposited data

How the results depend on the processing

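Lhx2, Foxc1, Tbx1 and Foxp1 kept their direction and their call under every alternative run, and no member's call ended when any 1 array was left out. With the replicate block, which uses the pairing, the counts were the same for members (1 higher, 6 lower) and probe sets (3 higher, 20 lower), and among the members and the genes named from the 4 related lists it changed only the call of Runx3. The departures of probe sets were not run with the block, and the marker lists were run under no alternative. With the methods' t-test, all 7 genes and 24 of 26 probe sets had an unadjusted p under 0.05; after adjustment 3 genes and 9 probe sets were lower, and the calls of Sox9 (0.122), Nfatc1 (0.079) and Runx1 (0.0841) were lost. Without the intensity trend, 11 member probe sets were lower, and in the fit of genes Sox9 and Runx1 (0.0555) were lost. With the floor, 14 member probe sets were lower. The calls lost with it included the brightest probe sets of Sox9 (0.0984), Nfatc1 (0.0575) and Runx1 (0.0624, limma). Signals of these probe sets, and of Hopx and Rcan1, were all above the floor. Their log2 differences were unchanged, and what moved was the fit over all rows. Over all genes, the count of higher was 1323 without the trend and 1262 with the t-test, and that of lower 1702 with the t-test; median centring gave 2916 higher and 1784 lower. Over all probe sets, higher was 1805 and 1935, centring gave 4975 higher and 3645 lower, and lower was 3220 without the trend and 3003 with the t-test. Median centring also ended the calls of Foxp1 1421141_a_at (0.0614), Foxp1 1443258_at (0.0852) and Runx1 1422865_at (0.0511). With the floor, 5 member probe sets departed from their gene's others, in 3 genes (Runx1, Foxp1 and Sox9), and with 1 array left out there were 1 to 2 such genes. Relatives called lower numbered 1 with the floor, 1 without the trend and 0 with the adjusted t-test. That t-test ended the calls of Foxp2 (0.0557), Sox8 (0.122), Nfatc3 (0.132), Hopx (0.11), Rcan1 (0.118), Ldb1 (0.153) and Itgb6 (0.0779). The cause was not tested. Values not called in the report changed sign for Stat3 (-0.060 to 0.12 with 1 array left out, -0.31 with the mean of probe sets), Socs3 (0.13 centred, -0.17 to 0.023 with 1 array left out, 0.073 with the mean of probe sets, 0.0195 without _x_at and _s_at probe sets), Ppp3ca (-0.029 to 0.088 with 1 array left out, -0.014 with quantile normalization), Ppp3r1 (-0.068 with quantile normalization, and called at -0.60 with the mean of probe sets) and the departure of Runx1 1452531_at (-0.38 to 0.25 with 1 array left out). Signals near background limit the dim probe sets of Sox9 and Foxp1, where differences of this size would often be missed.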
